A study of Mus musculus with 5 samples.

Results

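The 29 genes described here encode the enzymes of cholesterol synthesis, the enzymes of fatty acid synthesis and desaturation, and the proteins that regulate both. They were taken by name from a list, not by their values, and all 29 were measured among 19938 genes. The sterol branch held 16 genes, the fatty acid branch 9, and the remaining 4, *Insig1*, *Srebf1*, *Srebf2* and *Stard4*, are regulators or carry sterol and were kept apart. Expression was measured once per line on 5 Affymetrix Mouse Gene 1.0 ST arrays, in lines of the highly metastatic mouse mammary carcinoma cell 6DT1, to ask which genes differ with the level of *Arid4b*.

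The knockdown cohort (n = 2 lines) held 6DT1 cells with *Arid4b* shRNA hairpin 3 (H3) and with *Arid4b* shRNA hairpin 4 (H4). The control cohort (n = 3 lines) held cells with *Arid4b* shRNA hairpin 5 (H5), which left ARID4B protein near its control level, cells with the pLKO.1 scrambled control, and untransduced cells. The 4 transduced lines received lentivirus, were selected with puromycin at 10 ug/ml and were arrayed as pooled clones, whereas untransduced cells saw neither virus nor puromycin. In the labels ARID4B densitometry was 0.19 in H3 and 0.15 in H4, and 1.02, 1.00 and 1.09 in the H5, scrambled and untransduced lines. *Arid4b* mRNA had log2 values of 6.88 and 7.35 in the H3 and H4 lines and of 8.24, 8.34 and 8.36 in the same 3 controls, and differed by -1.20 on the log2 scale (standard error 0.15, adjusted p = 0.217 by limma). The epithelial keratin genes *Krt8* and *Krt18* had values of 11.81 to 12.26 and 11.57 to 11.71, whereas the epithelial adhesion genes *Epcam* (5.61 to 5.75) and *Cdh1* (6.05 to 6.16) had low values in every line. With a single array per line, p-values reflect how far single lines lie apart, part of which may be technical, and so few arrays limit the precision.

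Cholesterol is built from acetyl-CoA through mevalonate, squalene and lanosterol, and fatty acids are built from the same acetyl-CoA through malonyl-CoA before they are elongated and desaturated. Both pathways are transcribed under sterol regulatory element binding proteins (SREBPs), which are held in the endoplasmic reticulum by INSIG proteins when sterol is plentiful and are released by proteolysis when it is scarce. SREBP2, from *Srebf2*, acts mainly on sterol genes and SREBP1, from *Srebf1*, mainly on fatty acid genes, and carcinoma cells in culture commonly express both pathways.

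SREBPs bind a sterol regulatory element and act together with NF-Y, which binds CCAAT boxes, and with Sp1, which binds GC boxes. Promoter windows of 300 bases, from 250 before to 50 after the start site, were available for 22 of the 29 genes in RefSeq (mouse reference GRCm38.p6) and are those of the reference strain, not read from 6DT1 cells. The windows of 5 genes are shown, 3 sterol genes that lay far apart between lines, the gene called higher and a desaturase gene: *Hmgcs1* at chr13:119690101-119690400 (+ strand), *Idi1* at chr13:8885356-8885655 (+ strand), *Cyp51* at chr5:4104648-4104947 (- strand), *Hsd17b7* at chr1:169969156-169969455 (- strand) and *Fads2* at chr19:10101454-10101753 (- strand). Each runs 5′ to 3′, and capitals mark CCAAT boxes (CCAAT, or ATTGG for the other strand). In *Hmgcs1* alone they also mark a match to the string TCACNCCAC of the sterol regulatory element, which does not overlap a CCAAT box there.
Hmgcs1: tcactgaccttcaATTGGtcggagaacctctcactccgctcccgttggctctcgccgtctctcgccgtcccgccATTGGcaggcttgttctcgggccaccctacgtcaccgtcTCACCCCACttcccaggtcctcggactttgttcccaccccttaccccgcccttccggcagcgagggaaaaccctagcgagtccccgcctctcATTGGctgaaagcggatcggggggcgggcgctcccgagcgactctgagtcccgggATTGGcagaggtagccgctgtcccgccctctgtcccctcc
Idi1: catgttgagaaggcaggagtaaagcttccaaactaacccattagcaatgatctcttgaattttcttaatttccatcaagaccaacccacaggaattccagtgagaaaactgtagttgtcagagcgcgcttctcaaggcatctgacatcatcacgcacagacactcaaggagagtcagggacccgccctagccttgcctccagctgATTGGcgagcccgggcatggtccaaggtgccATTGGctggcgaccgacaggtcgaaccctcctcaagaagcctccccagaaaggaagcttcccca
Cyp51: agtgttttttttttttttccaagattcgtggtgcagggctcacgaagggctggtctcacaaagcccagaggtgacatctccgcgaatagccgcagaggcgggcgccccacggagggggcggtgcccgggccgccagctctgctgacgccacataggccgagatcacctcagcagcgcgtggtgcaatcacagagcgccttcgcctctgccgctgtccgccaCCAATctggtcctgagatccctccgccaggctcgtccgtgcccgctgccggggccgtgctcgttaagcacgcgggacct
Hsd17b7: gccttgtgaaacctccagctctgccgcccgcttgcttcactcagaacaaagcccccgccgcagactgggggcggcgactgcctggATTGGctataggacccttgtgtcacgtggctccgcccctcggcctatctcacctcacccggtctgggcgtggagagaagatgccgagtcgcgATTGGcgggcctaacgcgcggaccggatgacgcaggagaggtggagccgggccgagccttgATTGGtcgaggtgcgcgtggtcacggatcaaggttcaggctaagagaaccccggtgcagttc
Fads2: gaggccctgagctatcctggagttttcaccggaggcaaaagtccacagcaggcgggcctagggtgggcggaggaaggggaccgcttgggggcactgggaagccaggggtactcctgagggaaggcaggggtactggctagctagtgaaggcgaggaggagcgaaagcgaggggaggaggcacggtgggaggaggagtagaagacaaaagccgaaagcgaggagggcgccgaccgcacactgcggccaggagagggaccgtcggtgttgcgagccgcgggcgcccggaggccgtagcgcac

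Some genes had several windows, and a gene was counted where any of them held the motif. A CCAAT box on either strand lay in 13 of 13 sterol genes with a window, in 3 of 3 regulator genes and in 3 of 6 fatty acid genes, against 41.1% of 27025 genes in the same table. Counted by window, it lay in 13 of 16 sterol windows, against 37.4% of all windows. *Hmgcs1* held 4 CCAAT boxes, *Hsd17b7* 3, *Idi1* 2 and *Cyp51* 1, and *Fads2* held none. The Sp1 box GGGCGG, searched on both strands, was found in 12 of 13 sterol genes and 2 of 6 fatty acid genes, against 38.2% of all genes. The E-box CACGTG, which reads the same on both strands, was found in 3 of 13 sterol genes and in 0 of 6 fatty acid genes, against 8.09%. The string TCACNCCAC for the sterol regulatory element, searched on both strands, was found in *Hmgcs1* alone among the 22 genes. It lay at position -137 from the start site, and 1.44% of all genes held it. Only this string was searched, so an element spelled otherwise was not counted, and the other genes cannot be said to lack one. Matches overlapping between the motifs were each counted. A match describes the letters of these windows and is no measure of binding.

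Few of these genes passed the test between the cohorts. At an unadjusted p under 0.05 from limma, 2 of the 29 genes were lower in the knockdown cohort, *Srebf1* and *Fads1*, 1 was higher, *Hsd17b7*, and 26 did not pass, which is 10.3% called. Of all genes, 12.0% passed this threshold, 7.61% in the lower and 4.34% in the higher direction, so that the share among the lipid synthesis genes was near the background. Adjusted over all genes by limma none passed (0% of 19938, against 2383 unadjusted), and an unmoderated equal-variance test gave 3 genes adjusted and 1422 unadjusted, while the smallest adjusted p of the 29 genes from limma was 0.315. Without the scrambled control 1 gene was lower and 2 were higher. Without H5, and also without H4, 3 were lower, and without H3, without H4 or without the untransduced line none was higher. The share of all genes called in those fits was 11.5% without the scrambled control, 5.94% without H5, 34.5% without H4, 15.9% without H3 and 7.62% without the untransduced line. Where H3 or H4 was left out, a single knockdown line remained and the residual spread came from the control lines alone. The median SD between control lines was 0.21 for sterol genes and 0.14 for fatty acid genes, against 0.06 for all genes. The counts of those fits are therefore not read against the share of all genes. In RNA from a whole culture, fewer cells expressing a gene and less of its RNA per cell cannot be told apart.

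The median log2 fold change was 0.01 over the sterol branch, -0.03 over the fatty acid branch and -0.23 over the 4 regulator and carrier genes, against 0.03 over all genes. The sterol median exceeded the fatty acid median by 0.04, while the same difference between branches had a standard deviation (SD) of 0.07 between lines within the cohorts. Which line was present set the sign of the sterol median, which was -0.11 without H4, 0.14 without H3, -0.04 without H5 and -0.00677 when untransduced cells were left out, and it was -0.035 with array medians subtracted. The fatty acid median was likewise 0.04 without H3, 0.03 without the scrambled control and -0.12 without H4, and 0.00195 with quantile normalization. In 5 of the 29 genes both knockdown lines lay below all control lines, in 3 both lay above, and in 21 the cohorts overlapped, where the corresponding shares over all genes were 13.5% below and 13.9% above. For 16 of the 29 genes the knockdown mean lay within the range of the 3 control lines. That is a larger share than among all genes, where it held for 5393 of 19938. The control lines lay farther apart for the 29 genes, with a median SD of 0.18 against 0.06 for all genes. A wider control range holds the knockdown mean more easily, so these shares are not read as a smaller difference between cohorts.

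**Figure D1:**
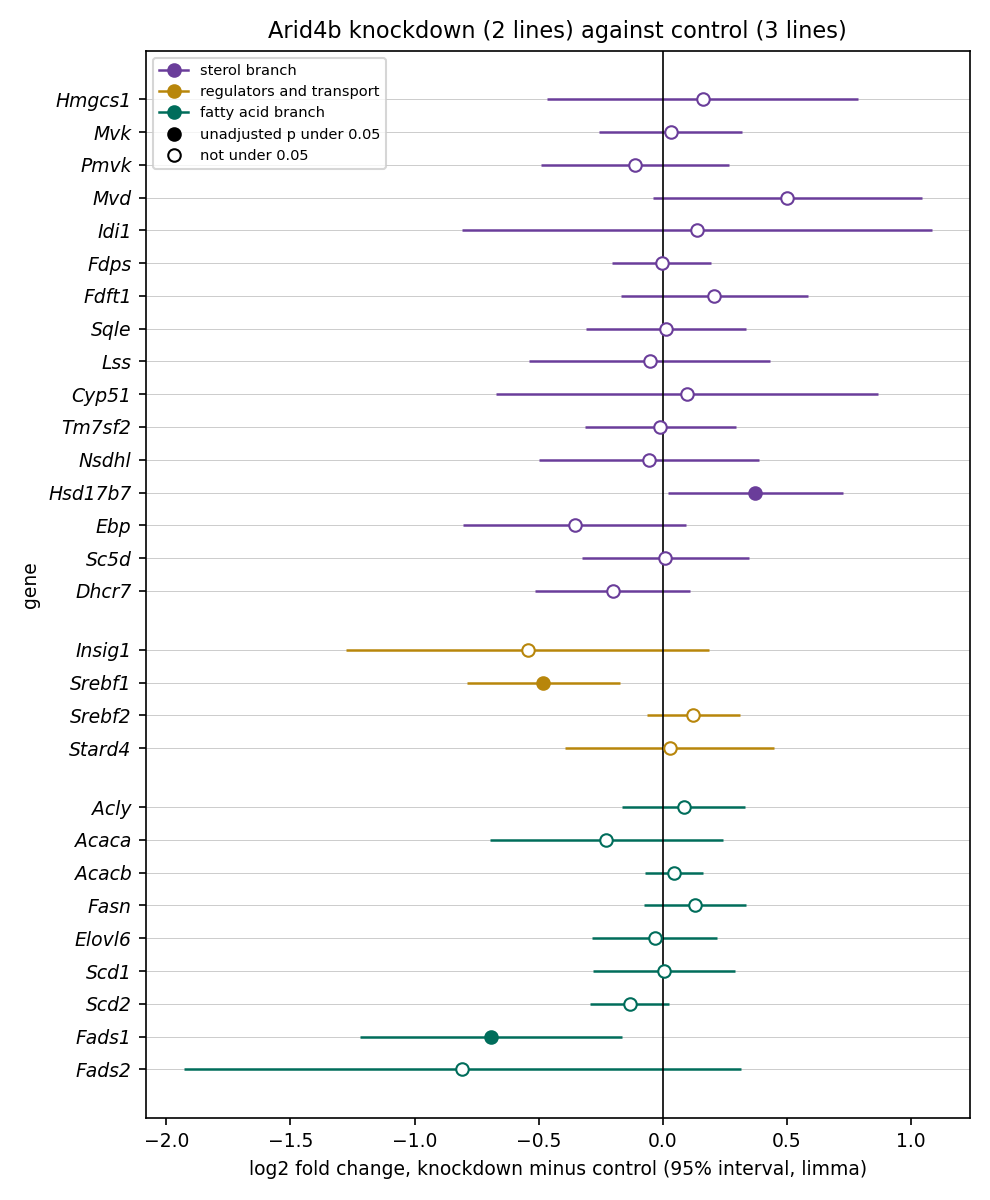
Log2 fold change of each gene, knockdown minus control, with the 95% interval from limma (x axis) for the 29 genes (y axis), coloured by branch, with 2 knockdown and 3 control lines. Filled points pass an unadjusted p under 0.05: *Hsd17b7* at 0.37, *Srebf1* at -0.48 and *Fads1* at -0.69, while the other 26 intervals include 0.

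In the sterol branch single lines of the same cohort lay far apart. The widest differences between the scrambled control and H5 were those of *Cyp51*, *Idi1* and *Hmgcs1*. *Idi1*, which encodes isopentenyl diphosphate isomerase of the mevalonate pathway, had log2 values of 9.17 in H3 and 10.03 in H4, and 9.14, 9.91 and 9.33 in the H5, scrambled and untransduced lines. *Cyp51*, the lanosterol demethylase, had 8.78 in H3 and 9.32 in H4, and 8.58, 9.36 and 8.92 in the H5, scrambled and untransduced lines. *Hmgcs1*, which makes HMG-CoA at the entry to the pathway, had 9.60 in H3 and 9.93 in H4, and 9.34, 10.00 and 9.47 in the H5, scrambled and untransduced lines. In all 3 genes H4 and the scrambled control, 1 line of each cohort, were the highest lines, H5 was the lowest, and the cohorts overlapped. The log2 fold changes were 0.14 for *Idi1* (95% interval -0.81 to 1.09), 0.10 for *Cyp51* (-0.67 to 0.87) and 0.16 for *Hmgcs1* (-0.47 to 0.79), so that each interval holds changes in both directions. The second probe set of *Idi1* had 9.04 in H3 and 9.94 in H4, and 9.11, 9.90 and 9.21 in the H5, scrambled and untransduced lines, with the same 2 lines highest.

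H4 and the scrambled control were the highest lines in 12 of the 16 sterol genes (75%). The same held for 1060 of all 19938 genes (5.32%) in the deposited values, and for 13.96% of them after quantile normalization, which left the sterol count at 12 of 16. The 12 genes were *Hmgcs1*, *Mvk*, *Pmvk*, *Idi1* and *Fdps* of the mevalonate steps, *Fdft1*, *Sqle* and *Lss*, which lead through squalene to lanosterol, and *Cyp51*, *Tm7sf2*, *Nsdhl* and *Sc5d* of the steps from lanosterol to cholesterol. The 4 exceptions were *Mvd*, *Hsd17b7*, *Ebp* and *Dhcr7*. H5 was the lowest line in 10 of the 16 genes, and the scrambled control was the highest in 9 and H4 in 5. In the fatty acid branch these lines were the highest pair in 2 of 9 genes, *Elovl6*, the elongase of long saturated chains, and *Scd1*, a stearoyl-CoA desaturase, and among the regulators in *Stard4*, a sterol carrier. This order of lines was noticed after the values had been seen and was given no test.

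**Figure D2:**
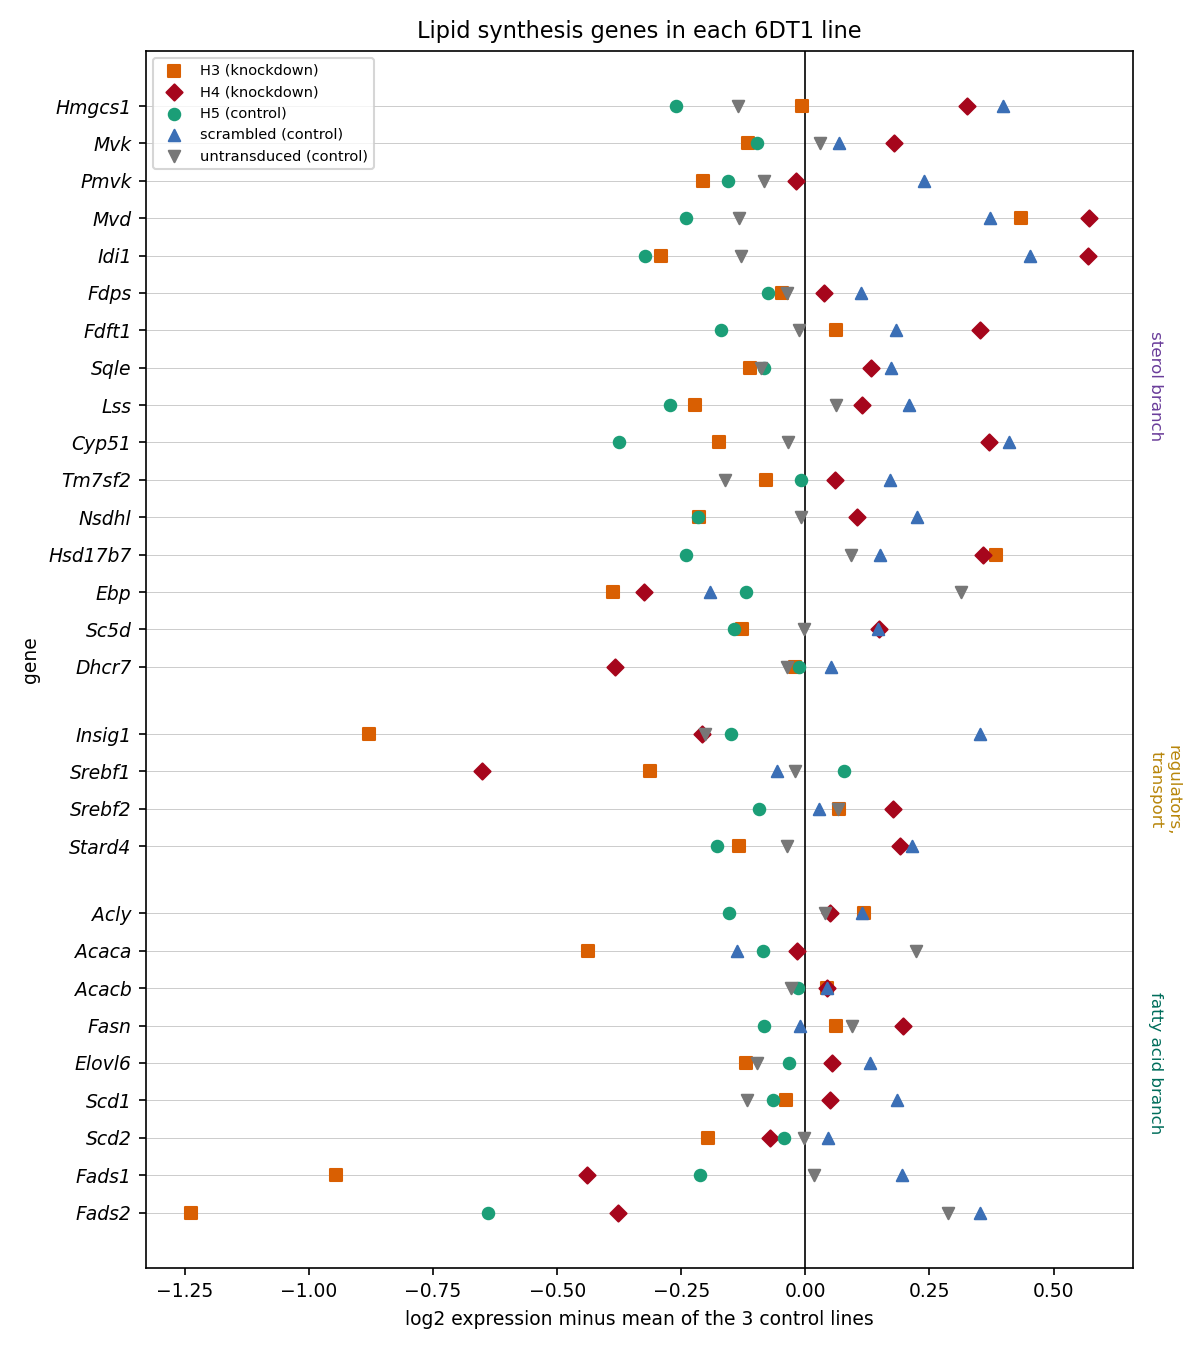
Log2 expression of each gene in each of the 5 lines, as the difference from the mean of the 3 control lines (x axis), for the 29 genes grouped by branch (y axis), with 1 point per line. In 12 of 16 sterol genes the points of H4 and of the scrambled control lie to the right of the other 3 lines, and *Fads1*, *Fads2* and *Insig1* have H3 farthest to the left.

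Within the knockdown cohort the median difference of H4 minus H3 over the 16 sterol genes was 0.26 log2 units, with 14 of 16 genes above 0. Within the control cohort the median difference of the scrambled control minus H5 was 0.37, and that minus untransduced cells 0.22, each with 15 of 16 genes above 0. Over all genes the corresponding medians were -0.05, 0 and 0, with 36.7%, 40.9% and 44.1% of genes above 0. The H3 array had the narrowest spread of values, with an SD over all probe sets of 2.25 against 2.29 to 2.30 in the other lines and a median of 6.35 against 6.24 to 6.25. Equal values, which 7663 genes held in 2 or more lines, count there as not above 0. After quantile normalization, which gives all arrays 1 distribution, the sterol medians were 0.19 for H4 minus H3, with 14 of 16 above 0, and 0.39 for the scrambled control minus H5. Over all genes the medians were then -0.03 and 0.02, with 43.4% and 61.3% of genes above 0. For the scrambled control minus untransduced cells 61.7% of all genes lay above 0. These are single arrays, so the differences between lines have no replicate check, and line, culture and array cannot be told apart.

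Sterol genes with a larger difference of H4 minus H3 tended to have a larger difference of the scrambled control minus H5. This depended on the pair of control lines. Across the 16 genes, Pearson's r between H4 minus H3 and the scrambled control minus H5, which share no array, was 0.71 (Spearman's rho 0.68), and across all 19938 genes it was 0.05 (rho -0.06). *Idi1* differed by 0.86 and 0.78 in these comparisons, *Cyp51* by 0.54 and 0.79, and *Hmgcs1* by 0.33 and 0.66, while *Dhcr7*, the last enzyme of the pathway, had -0.36 and 0.07. Against untransduced cells in place of H5, r over the sterol genes was 0.51 (rho 0.50). For untransduced cells minus H5, the pair without the scrambled control, it was 0.28 (rho 0.39). Across the 9 fatty acid genes r was 0.73 with rho at 0.28, and it turned to -0.17 (rho -0.22) against untransduced cells in place of H5. For untransduced cells minus H5 it was 0.85 (rho 0.55) in that branch. *Fads2* had the branch's widest differences of H4 minus H3, 0.86, and of the scrambled control minus H5, 0.99. Genes are not independent replicates, each axis rests on 2 arrays, and no p is given.

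**Figure D3:**
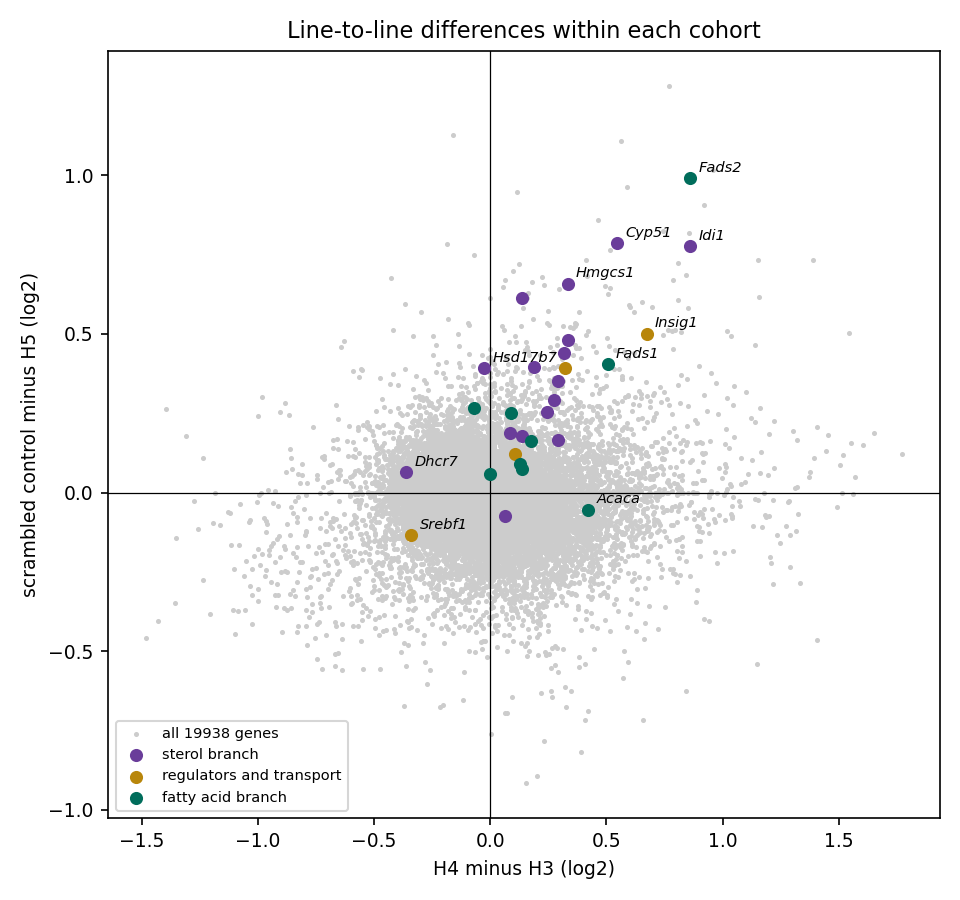
Difference between H4 and H3 (x axis, log2) against the difference between the scrambled control and H5 (y axis, log2) for all 19938 genes in grey and the 29 lipid synthesis genes coloured by branch, with 1 array per line. Most sterol genes lie in the upper right, up to *Idi1* at 0.86 and 0.78, whereas *Srebf1* lies in the lower left and r across all genes was 0.05.

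The remaining sterol genes took other orders. *Hsd17b7*, the 3-keto reductase that works on sterol intermediates, had log2 values of 10.17 in H3 and 10.14 in H4, and 9.54, 9.94 and 9.88 in the H5, scrambled and untransduced lines. Both knockdown lines lay above the control mean of 9.79 ± 0.21 (SD, n = 3 lines) and above each control line. The log2 fold change was 0.37 (standard error 0.13, limma adjusted p = 0.400), or 1.29 times the control level. The gene no longer passed the unadjusted threshold without H3 (log2 fold change 0.36), without H4 (0.39) or without the untransduced line (0.42), nor with array medians subtracted (0.33), array weights (0.52) or the unmoderated test.

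*Mvd*, mevalonate diphosphate decarboxylase, had 8.975 in H3 and 9.11 in H4, and 8.30, 8.91 and 8.41 in the H5, scrambled and untransduced lines. The knockdown lines lay above the 3 control lines, the scrambled control being close to H3. Its log2 fold change of 0.50 (95% interval -0.04 to 1.04) did not pass, but it did without the scrambled control (0.69), with quantile normalization (0.58), with the trend and robust options and with the filter on low genes. *Ebp*, which shifts the double bond of the sterol ring, had 9.36 in H3 and 9.42 in H4, and 9.63, 9.55 and 10.06 in the H5, scrambled and untransduced lines. Here the knockdown lines lay below the controls, with a log2 fold change of -0.36 (95% interval -0.81 to 0.09) that passed without the untransduced line at -0.20. *Dhcr7*, the final reductase, had 9.93 in H3 and 9.57 in H4, against 9.91 to 10.00 in the control lines, so that H4 alone stood apart, and its log2 fold change of -0.20 passed without H3 (-0.38) and with array medians subtracted (-0.25). The other 12 sterol genes had log2 fold changes between -0.11 (*Pmvk*) and 0.21 (*Fdft1*, squalene synthase), and none passed.

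Among the regulators *Srebf1* was lower in the knockdown lines. It had log2 values of 9.18 in H3 and 8.84 in H4, and 9.57, 9.43 and 9.47 in the H5, scrambled and untransduced lines. Both knockdown lines lay below every control line, and the controls were close together at 9.49 ± 0.07 (SD, n = 3 lines). The log2 fold change was -0.48 (standard error 0.12, limma adjusted p = 0.315), or 0.716 times the control level, and the unadjusted call was made under each of 13 alternatives, with -0.65 without H3 and -0.31 without H4. Unlike most sterol genes, *Srebf1* had its lowest value in H4 and its highest in H5.

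*Srebf2* had 9.94 in H3 and 10.04 in H4, and 9.775, 9.90 and 9.93 in the H5, scrambled and untransduced lines, with the knockdown lines narrowly above the controls. Its log2 fold change was 0.12 (95% interval -0.07 to 0.31), and it passed with quantile normalization at 0.19. *Insig1*, which retains SREBPs in the endoplasmic reticulum and is itself an SREBP target, had 9.47 in H3 and 10.139 in H4, and 10.20, 10.70 and 10.145 in the H5, scrambled and untransduced lines. H3 was far below the other lines, and H4 lay just under the untransduced cells. The log2 fold change of -0.54 (95% interval -1.27 to 0.19) did not pass, and it was -0.21 without H3 and -0.88 without H4. *Stard4* followed the line order of the sterol genes and had a log2 fold change of 0.03.

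In the fatty acid branch the desaturase genes *Fads1* and *Fads2* held the largest differences between cohorts. *Fads1*, the delta-5 desaturase of polyunsaturated fatty acids, had log2 values of 9.32 in H3 and 9.83 in H4, and 10.06, 10.46 and 10.29 in the H5, scrambled and untransduced lines. Both knockdown lines lay below all controls, whose mean was 10.27 ± 0.20 (SD, n = 3 lines). The log2 fold change was -0.69 (standard error 0.20, limma adjusted p = 0.344), or 0.619 times the control level, and *Fads1* no longer passed the unadjusted threshold without H3 (-0.44), without the scrambled control (-0.60) or without the untransduced line (-0.68), nor with array weights (-0.57) or the unmoderated test. *Fads2*, the delta-6 desaturase, had 8.22 in H3 and 9.08 in H4, and 8.82, 9.81 and 9.74 in the H5, scrambled and untransduced lines. H5 lay below H4, so the cohorts overlapped, and the log2 fold change of -0.81 (95% interval -1.93 to 0.32) did not pass, although without H5 it did at -1.13.

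*Fads1* and *Fads2* are neighbours in the genome, with *Fads3* and *Fen1* beside them. *Fads3*, another member of the family, differed by -0.10 on the log2 scale (standard error 0.07). *Fen1*, a flap endonuclease of DNA replication, was looked up after its neighbours had been seen. It had log2 values of 7.498 in H3 and 7.22 in H4, and 8.63, 8.09 and 8.74 in the H5, scrambled and untransduced lines. Its log2 fold change of -1.13 (standard error 0.23, limma adjusted p = 0.292) passed the unadjusted threshold and was larger than those of *Fads1* and *Fads2*. Among these genes H3 had the lowest value for *Fads1*, *Fads2* and, narrowly, *Fads3* (11.109 against 11.115 in H4), and H4 the lowest for *Fen1*.

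*Scd2*, a stearoyl-CoA desaturase, had 12.33 in H3 and 12.45 in H4, and 12.48, 12.57 and 12.52 in the H5, scrambled and untransduced lines. The cohorts did not overlap but the log2 fold change of -0.13 (95% interval -0.29 to 0.03) did not pass, except without H4, at -0.20. *Acaca*, the acetyl-CoA carboxylase of lipid-making cells, had 8.82 in H3 and 9.24 in H4, and 9.17, 9.12 and 9.48 in the H5, scrambled and untransduced lines. H3 alone was low, and the log2 fold change was -0.23 (95% interval -0.70 to 0.24). The log2 fold changes of *Acly*, which makes cytosolic acetyl-CoA, *Fasn*, fatty acid synthase, *Acacb*, *Elovl6* and *Scd1* lay between -0.03 and 0.13. For *Fasn* the 95% interval ran from -0.08 to 0.33, and *Acacb* had low values of 6.44 to 6.51 in every line with ties between arrays.

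The spread between control lines was read from medians over genes. The median SD over the 3 control lines was 0.21 log2 units for the sterol branch and 0.14 for the fatty acid branch, against 0.06 for all genes, and the median range over all 5 lines was 0.46, 0.28 and 0.27. All genes include low ones, and 7663 held equal values in 2 or more lines, whereas sterol genes had values of 7.66 to 11.27. Genes of matched level were not compared. The standard errors of the cohort comparison follow the spread between lines, from 0.08 for *Fdps* to 0.36 for *Idi1* in the sterol branch.

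Genes next to these pathways were taken from lists by function. Of other sterol synthesis genes 2 of 5 were measured. *Msmo1*, the sterol C-4 methyl oxidase, had 9.94 in H3 and 10.35 in H4, and 9.76, 10.25 and 9.76 in the H5, scrambled and untransduced lines. H4 and the scrambled control were its highest lines. *Ggps1*, which draws farnesyl diphosphate away from sterols to make geranylgeranyl diphosphate, was lower in the knockdown lines, at 8.13 and 8.18 against 8.40 in the scrambled control, 8.73 in untransduced cells and 8.595 in H5. Its log2 fold change was -0.42, and the call was lost without H3 (-0.39), without H4 (-0.45) and without H5 (-0.41), and with array weights. Of 4 measured genes of SREBP processing, 1 was lower, *Scap*, the escort of SREBPs (log2 fold change -0.20), and 3 did not pass, among them *Insig2* (0.03). The *Scap* call was made under 3 of the 13 alternatives. It was lost without any 1 of H3 (-0.26), H4 (-0.14), H5 (-0.18) or the untransduced line (-0.17), and with the unmoderated test, the trend and robust options, quantile normalization, the filter on low genes, array weights and the puromycin covariate. Of 6 genes of sterol uptake, transport and storage 1 was higher, *Npc2*, a lysosomal sterol carrier (0.24), whose call was made under 4 of the 13 alternatives. It was lost without H3 (0.28), H4 (0.20), H5 (0.22) or the untransduced line (0.19), and with the unmoderated test, subtracted array medians, the filter on low genes, array weights and the puromycin covariate.

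Of 6 measured genes of the liver X receptor and sterol efflux list 1 was lower, *Lpcat3*, which puts polyunsaturated chains into phospholipids, and 5 did not pass. *Lpcat3* had 10.89 in both H3 and H4, and 11.07, 11.22 and 11.27 in the H5, scrambled and untransduced lines. Its log2 fold change was -0.30, and the call was lost with array weights and without H3 (-0.30) or H4 (-0.30).

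Of 11 measured genes of fatty acid supply, activation and elongation, 2 were lower and 9 did not pass. *Me1*, malic enzyme, which supplies NADPH for fatty acid synthesis, had 8.78 in H3 and 9.12 in H4, and 9.51, 9.62 and 9.91 in the H5, scrambled and untransduced lines. Its log2 fold change was -0.73 (standard error 0.16, limma adjusted p = 0.294), and the call was lost without H3 (-0.56) and with array weights. *Elovl5*, the elongase of polyunsaturated chains, was at 10.55 and 10.72 against 10.84 to 11.10, a log2 fold change of -0.31. Its call was made under 6 of the 13 alternatives, being lost without H3 (-0.23), H4 (-0.40), H5 (-0.34) or the untransduced line (-0.24), and with the unmoderated test, array weights and the puromycin covariate. *Acss2*, which makes acetyl-CoA from acetate, had 8.89 in H3 and 9.70 in H4, and 8.38, 9.10 and 8.29 in the H5, scrambled and untransduced lines. H4 and the scrambled control were its highest lines, and the log2 fold change of 0.71 (95% interval -0.26 to 1.67) did not pass. That line order held in 3 of the 11 genes of this list. It held in 0 of 4 genes of SREBP processing and 1 of 6 of sterol uptake, transport and storage. In the efflux list it held in 0 of 6 genes, and in the fatty acid oxidation list in 1 of 9.

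Of 9 genes of fatty acid oxidation 1 was higher and 8 did not pass. *Cpt1a*, which brings fatty acids into mitochondria, had 9.46 in H3 and 9.90 in H4, and 9.05, 8.93 and 8.54 in the H5, scrambled and untransduced lines. Both knockdown lines lay above all controls. The log2 fold change was 0.84 (standard error 0.21, limma adjusted p = 0.317), or 1.79 times the control level, and the call was lost without H4 (0.62) and with array weights.

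**Figure D4:**
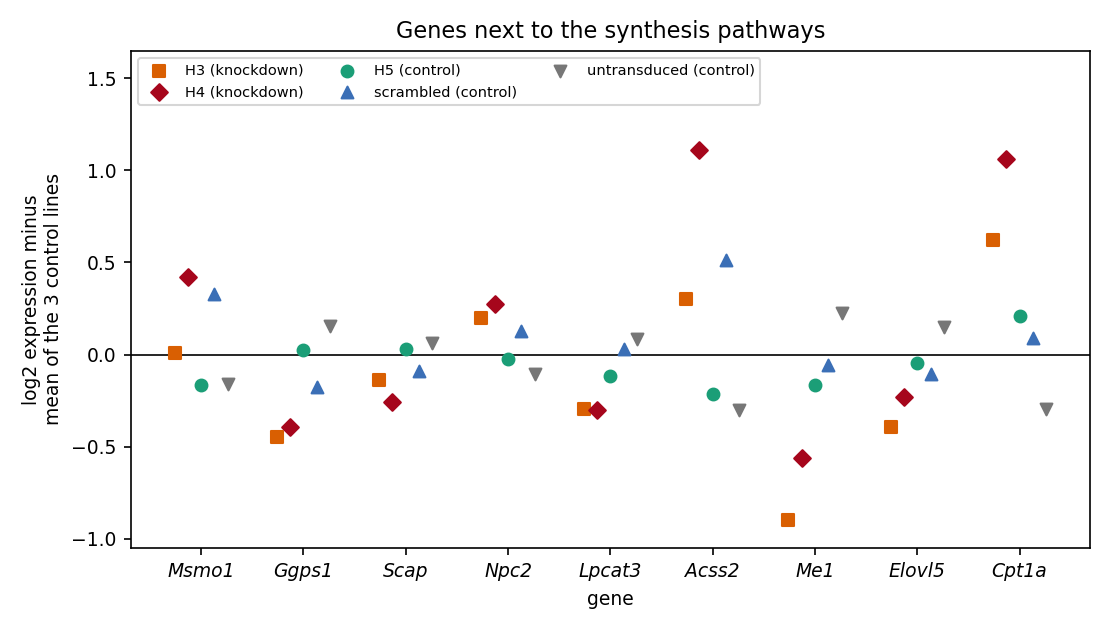
Log2 expression as the difference from the mean of the 3 control lines (y axis) for 9 genes next to the synthesis pathways (x axis), with 1 point for each of the 5 lines. *Me1* lies below 0 and *Cpt1a* above 0 in both knockdown lines, and *Msmo1* and *Acss2* have H4 and the scrambled control highest.

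Proliferation genes moved with the cohorts. All 7 measured genes of that list were lower in the knockdown lines, with a median log2 fold change of -0.77, and examples were *Mki67* (-0.96), *Rrm2* (-1.09), *Top2a* (-0.93) and *Pcna* (-0.66). The unmoderated test and the puromycin covariate each ended the calls of *Cdk1*, *Mcm2*, *Mcm5*, *Rrm2* and *Top2a*, 5 of the 7, and array weights that of *Mcm5*, whereas *Mki67* and *Pcna* were lower under each of the 13 alternatives. Without H4 the calls of *Mcm2* (-0.42), *Mcm5* (-0.39) and *Rrm2* (-0.67) were lost, without H5 or the untransduced line those of *Cdk1* (-0.75 and -0.72), *Mcm2* (-0.76 and -0.68), *Mcm5* (-0.73 and -0.64), *Rrm2* (-1.06 and -0.99) and *Top2a* (-0.90 and -0.91), and without the scrambled control that of *Top2a* (-0.997). Their median difference from the control mean was -0.46 in H3 and -1.13 in H4, and 0.06, -0.14 and 0.11 in the H5, scrambled and untransduced lines. H4, where most sterol genes were high, had the lowest proliferation genes, and their part in the values of *Srebf1*, *Fads1* and *Hsd17b7* was not tested. Of 7 mammary epithelial marker genes 0 passed in limma. Of the markers of other cells, 6 adipocyte genes had values of 4.37 to 6.56 with 0 passing in limma, and fibroblast and endothelial genes (6 measured) had 5.15 to 7.36 with 0 passing. Of 5 macrophage and leukocyte genes *Csf1r* passed at 0.20, from 5.54 in H3 and 5.40 in H4 against 5.26 to 5.30, while *Ptprc* (4.98 to 5.15) and *Adgre1* (4.53 to 4.70) did not pass. The *Csf1r* values are low, within the range of the adipocyte genes, in all 6 of which H3 was the highest line. The part of the higher median of the H3 array in this call was not tested. *Cd14* had 8.10 to 8.69 with overlapping cohorts, and *Itgam* had 6.05 in H3 and 6.24 in H4, above the 5.86 to 6.03 of the controls, and did not pass (log2 fold change 0.19).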

How the data were processed

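RNA from 5 6DT1 lines was arrayed once each on Affymetrix Mouse Gene 1.0 ST arrays. Normalization by the authors used RMA and Partek Genomics Suite (versions: not given in the sources used here), and the deposited values are on a log2 scale, so true differences in total RNA between lines would not show. Of 35556 probe sets, 21789 had 1 gene symbol in the platform annotation, 1621 had several and 12146 are unnamed here, and 21698 gene IDs of the first matched a RefSeq table (GRCm38.p6), used for names and gene order. Each of 19938 genes was represented by its probe set of highest mean, and of the 29 genes *Acaca*, *Fdft1* and *Idi1* had 2 probe sets.

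Lines were grouped by the ARID4B level in the labels. The cohorts were compared over all genes in limma 3.58.1 (R 4.3.3) by a two-sided moderated test, with prior degrees of freedom of 1.58 beside 3 residual ones. Genes were called where the unadjusted p was under 0.05, the threshold the study gives with ANOVA and no stated model, and Benjamini-Hochberg values over all genes stand beside them. Intervals are 95% intervals from limma. The script was first tested on simulated data. The genes, lists and tests were chosen with earlier results of these data known. Named were all 29 genes, the called genes of each related list (up to 4), *Scap*, *Insig2* and *Cpt1a* whatever their values, and up to 4 genes of each marker list. *Msmo1*, *Acss2*, *Fads3*, *Fen1*, *Itgam* and the *Mcm2*, *Mcm5* and *Cdk1* values fall outside this rule and were named after their values were seen.

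Alternatives tried were limma with trend and robust options, array weights, a puromycin covariate, an equal-variance test without moderation, subtracted array medians, quantile normalization, a filter that dropped 1 in 3 genes by lowest mean, averaged probe sets, and 5 fits that each lacked a line. Some genes of the related and marker lists are not reported here. The 22 genes with promoter windows had 27 windows in RefSeq. Windows of *Fads1*, *Scd1*, *Scd2*, *Sqle*, *Stard4*, *Fdft1* and *Fdps* were not used here.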

Additional observations from a re-analysis of the deposited data

How the results depend on the processing

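Of the 3 called genes, *Srebf1* was lower under each of the 13 alternatives. The count of lower genes, 2, was 1 with the equal-variance test without moderation and with array weights, and 3 with subtracted array medians. The count of higher genes, 1, was 0 with that test, with subtracted array medians, with array weights and with the puromycin covariate, 2 with the trend and robust options and with the filter on low genes, and 3 with quantile normalization. The share of all genes called, 12.0% in the main fit, moved as well. It was 7.13% with the equal-variance test, 6.46% with array weights and 7.62% with the puromycin covariate. With the trend and robust options it was 11.6%, and with subtracted array medians 12.8%. It was 13.2% with quantile normalization and 15.8% of 13292 genes with the filter. Leaving out 1 line gave 1 to 3 lower and 0 to 2 higher genes. Where H3 or H4 was left out, the fit took the spread of the control lines for the lone knockdown line, and the puromycin covariate has the same effect as leaving out the untransduced line. The branch medians moved by less than the SD between lines under these alternatives. That SD comes from the same lines, so it is a weak check on fits that leave a line out. The sterol median changed sign, from -0.11 without H4 to 0.14 without H3. Values of single genes under an alternative were counted for *Arid4b* and the lipid synthesis genes together. The puromycin covariate and the fit without the untransduced line, which gave the same values, were both counted. Of these values 322 kept direction and call, 13 lost the call, 11 gained it and 44 turned direction, each in a gene that was not called. With array medians subtracted the log2 fold change turned to -0.0144 for *Mvk*, -0.0343 for *Sqle*, -0.0358 for *Sc5d*, -0.0169 for *Stard4*, -0.00142 for *Acacb* and -0.0402 for *Scd1*. With quantile normalization it turned to 0.0474 for *Fdps*, 0.0132 for *Lss*, 0.0572 for *Tm7sf2*, 0.011 for *Nsdhl* and 0.0108 for *Elovl6*. With array weights it turned to 0.0387 for *Fdps*, 0.11 for *Lss* and 0.0715 for *Nsdhl*. With the puromycin covariate it turned to -0.0333 for *Sqle* and -0.0537 for *Scd1*. With 1 line left out at a time, the genes that turned in some fit ranged from -0.00624 to 0.36 for *Hmgcs1*, -0.12 to 0.18 for *Mvk*, -0.21 to 0.00745 for *Pmvk*, -0.29 to 0.57 for *Idi1*, -0.0467 to 0.0517 for *Fdps*, -0.11 to 0.13 for *Sqle*, -0.22 to 0.11 for *Lss*, -0.17 to 0.37 for *Cyp51*, -0.0912 to 0.075 for *Tm7sf2*, -0.21 to 0.10 for *Nsdhl*, -0.13 to 0.15 for *Sc5d*, -0.13 to 0.19 for *Stard4*, -0.12 to 0.0543 for *Elovl6* and -0.0537 to 0.0974 for *Scd1*. The cause was not tested. No paired analysis was possible because the labels give the lines no shared replicate numbers.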
